A study of Homo sapiens with 12 samples.

Results

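The 10 genes described here are the cyclins and cyclin-dependent kinases (CDKs) that drive the classical cell cycle. They are the D-type cyclins CCND1, CCND2 and CCND3, the E-type cyclins CCNE1 and CCNE2, the A-type cyclin CCNA2, the B-type cyclins CCNB1 and CCNB2, and the kinases CDK1 and CDK2. They were picked by gene symbol from the 58735 genes of the count table, by a rule that contains no measured value. Of these 10 genes, 9 had enough counts to be tested, as had 16891 genes in all. CCND2 was the exception, with 1 count in 1 library and 0 counts in the other 11.

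A CDK is inactive as a kinase until a cyclin binds it, and its activity is further set by activating and inhibitory phosphorylation, by small inhibitor proteins and by timed destruction of the cyclin. D-type cyclins with CDK4 or CDK6 act in G1 in response to growth signals, E-type cyclins with CDK2 act at the entry into S phase, cyclin A acts with CDK2 and then CDK1 through S phase and G2, and B-type cyclins with CDK1 drive mitosis. Transcripts of the E-, A- and B-type cyclins and of CDK1 rise and fall with the cycle, so in a bulk RNA sample their level moves with the share of cells in each phase.

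The RNA came from FDX2-iKO ES2 cells, an ovarian carcinoma line in which the endogenous FDX2 gene was disrupted by genome editing while an editing-resistant, HA-tagged FDX2 cDNA was expressed from a doxycycline (Doxy)-dependent promoter, so all 12 libraries carry both the edited locus and the transgene. FDX2 is a mitochondrial ferredoxin used in the assembly of iron-sulfur clusters. There were 4 conditions of 3 biological replicates each: 20% O2 with Doxy, 20% O2 without Doxy (FDX2 loss), 3% O2 with Doxy and 3% O2 without Doxy (FDX2 loss). Cells at 20% O2 were cultured for 6 days, and cells at 3% O2 for 4 days at 20% O2 followed by 3 days at 3% O2, so oxygen and the length of culture cannot be told apart. Likewise, loss of FDX2 cannot be told apart from the absence of Doxy itself. The iKO cells were established as clones after editing. The study's methods give clone #1 as the source of results unless stated otherwise, so the 12 libraries probably share 1 clone. The labels do not name the clone, and no unedited ES2 library was analysed here.

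Library totals ran from 24958386 to 34313637 counts, with a median of 29621780. The targeted gene could not serve as a check of the labels: FDX2 had 2 to 13 counts in a library over the 12 libraries, with overlap between all conditions, and 70.9% of its exon bases are shared with other genes on the same strand, so it was not tested. Of the markers of the line, KRT7, KRT8, KRT18, VIM and PAX8 were detected well enough to test, while EPCAM, CDH1, MUC16, NAPSA and WT1 had 0 to 9 counts in a library. Blood and endothelial markers PTPRC, CD3E, CD14 and PECAM1 had 0 to 6 counts, and CDH5, an endothelial cadherin, was present at 22.1 to 51.4 CPM, where CPM stands for read counts normalized to library size. CDH5 rose from 32.0 ± 4.12 CPM with Doxy to 45.1 ± 5.88 CPM without at 3% O2 (SD, n = 3), while the other blood and endothelial markers stayed near 0. It was also higher at 3% O2 without Doxy than at 20% O2 without Doxy (log2 fold change 0.77) and than at 20% O2 with Doxy (0.87). Markers of the line moved too. After FDX2 loss at 20% O2, 3 of 5 tested were lower (KRT7, KRT18 and VIM), against 17.7% of all genes tested. Without Doxy, 4 of 5 were higher at 3% than at 20% O2 (KRT8, KRT18, VIM and PAX8), against 13.9% of all genes tested. The part of these markers in the results was not tested. Deviations from the group means were shared across conditions: replicate 1 with Doxy at 20% O2, replicate 3 with Doxy at 3% O2 and replicate 2 without Doxy at 3% O2 deviated together, with Pearson's r from 0.765 to 0.818 over 11133 genes as a description. Fits without 1 of these libraries are described for some genes below, but not for every call that they ended.

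FDX2 loss at 20% O2 was accompanied by lower transcripts of 8 of the 9 tested members and by no higher one. Among all genes tested, 17.7% were lower at the same threshold, which was an adjusted p under 0.05 (quasi-likelihood F-test of edgeR, p-values adjusted by Benjamini-Hochberg over the whole table). The median log2 fold change of the members was -0.55, against 0.01 over all genes tested. At 3% O2, 5 of 9 members were lower without Doxy, against 3.11% of all genes, and the median was -0.26 against 0.04. Tested directly, the 2 responses were unequal for CCNA2, CCNB1 and CCNB2, which is 3 of 9 members, all in the direction of a smaller decrease at 3% O2, a direction in which 3.21% of all genes were called (7.29% in both directions). The 3 libraries without Doxy lay wholly below the 3 with Doxy for 8 of 9 members at 20% O2, against 25.8% of all genes, and for 5 of 9 at 3% O2, against 11.2%. Because these are bulk samples, fewer cycling cells and less transcript per cycling cell cannot be told apart. The levels of each member by library are plotted first.

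**Figure D1:**
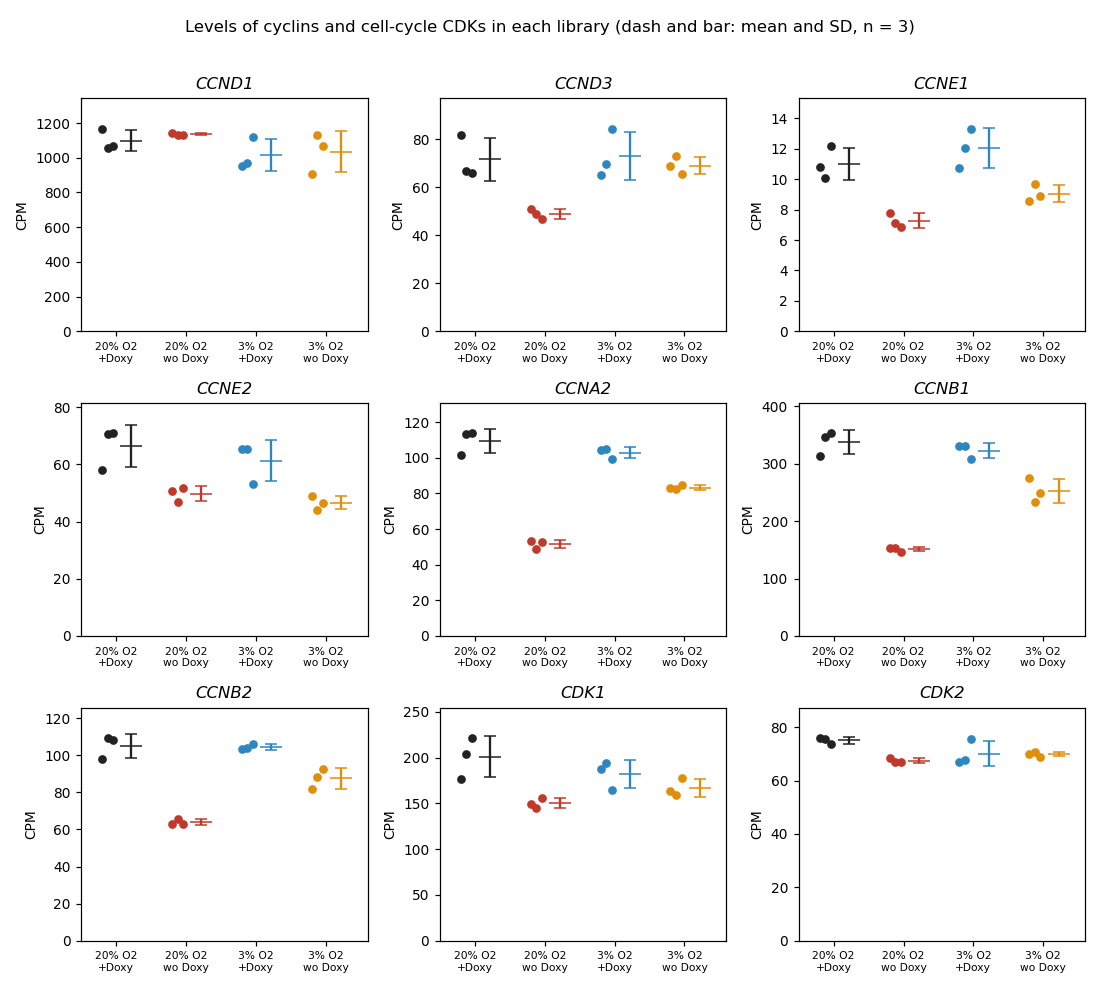
Level of the 9 tested members in each of the 12 libraries, in CPM on axes that start at 0, by oxygen and Doxy (3 libraries a condition, replicates 1 to 3 from left to right; the dash and bar beside them give the mean and SD). CCNA2, CCNB1 and CCNB2 lie lowest in the 3 libraries at 20% O2 without Doxy and at an intermediate level at 3% O2 without Doxy, whereas CCND1 overlaps between the conditions with and without Doxy at each oxygen level.

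The D-type cyclins split into a dominant transcript that did not pass the test and a minor one that fell at 20% O2. CCND1 (chr11:69641087-69654474, plus strand, GRCh38), the cyclin through which many growth signals reach CDK4 and CDK6, was at 1168, 1058 and 1069 CPM in replicates 1, 2 and 3 at 20% O2 with Doxy and at 1144, 1133 and 1131 CPM without Doxy. Its level at 3% O2 was 952, 969 and 1119 CPM with Doxy and 906, 1132 and 1071 CPM without. These values overlapped between conditions at each oxygen level. The log2 fold change on FDX2 loss was 0.05 (SE 0.0837, adjusted p = 0.6921 in edgeR) at 20% O2, with a 95% interval from -0.14 to 0.23, and 0.03 (interval -0.15 to 0.22) at 3% O2. A decrease of the size seen in CCNB1 lies outside both intervals.

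CCND3 (chr6:41934933-42050357, minus strand), a D-type cyclin best known from blood cell lineages, was at 81.9, 66.8 and 66.0 CPM at 20% O2 with Doxy and at 50.8, 48.9 and 46.9 CPM without Doxy. The groups did not overlap, and CCND3 fell by 0.55 on the log2 scale (SE 0.106, adjusted p = 0.002166 in edgeR), to 68.2% of its level with Doxy. At 3% O2 its values were 65.0, 69.7 and 84.4 CPM with Doxy and 68.9, 72.9 and 65.4 CPM without, which overlapped, with a log2 fold change of -0.08 (adjusted p = 0.6866). The high values of CCND3 with Doxy, 81.9 and 84.4 CPM, were in 2 of the libraries that deviated together. Without replicate 1 the decrease at 20% O2 was -0.46 (adjusted p = 0.004399), and without replicate 3 of the cells with Doxy at 3% O2 the fold change there was 0.04 (adjusted p = 0.8304). The difference of the responses was 0.47 (SE 0.149) and did not pass the test (adjusted p = 0.08562), but it did without that last library (0.59, adjusted p = 0.01769). CCND2 (chr12:4273772-4305350) had 1 count over the 12 libraries, which supports no comparison.

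Per kilobase of annotated exon, CCND1 made up 94.9% ± 0.337 (SD, n = 3) of the summed D-type cyclin level at 20% O2 with Doxy and 96.5% ± 0.115 without. CCND3 made up 5.13% ± 0.336 and 3.45% ± 0.115 of that sum. At 3% O2 the CCND3 share was 5.64% ± 0.264 with Doxy and 5.29% ± 0.583 without. The share at 20% O2 without Doxy lay below that of every other library. The exact two-sided permutation test gave p = 0.1 for FDX2 loss at 20% O2, which is the smallest that 3 against 3 libraries allow, and 0.3 after adjustment over the 18 share and ratio tests.

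Both E-type cyclins were lower after FDX2 loss at either oxygen level, less firmly at 3% O2. CCNE1 (chr19:29811898-29824308, plus strand), an activator of CDK2 that is often amplified in ovarian cancer, was at 10.8, 10.1 and 12.2 CPM at 20% O2 with Doxy and at 7.80, 7.14 and 6.83 CPM without. It fell by 0.60 on the log2 scale (SE 0.104, adjusted p = 0.001057 in edgeR), and the groups did not overlap. Under 3% O2 its values were 10.7, 12.1 and 13.3 CPM with Doxy and 8.57, 9.68 and 8.89 CPM without, again with no overlap. The log2 fold change there was -0.41 (SE 0.103, adjusted p = 0.03562). That adjusted p was not under 0.05 in 9 of 17 alternatives, with values from 0.007147 to 0.2579. CCNE1 was the least abundant tested member, with 210 to 414 counts in a library.

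CCNE2 (chr8:94879770-94896678, minus strand), the second E-type cyclin, was at 58.0, 70.7 and 70.8 CPM at 20% O2 with Doxy and at 50.7, 46.7 and 51.6 CPM without. Under 3% O2 the values were 65.2, 65.5 and 53.2 CPM with Doxy and 48.8, 44.2 and 46.6 CPM without. The low values with Doxy, 58.0 and 53.2 CPM, came from the same libraries in which CCND3 was high. CCNE2 changed by -0.42 (SE 0.0980, adjusted p = 0.006582 in edgeR) at 20% O2 and by -0.40 (SE 0.0985, adjusted p = 0.03417) at 3% O2, to 74.7% and 75.9% of the level with Doxy. Its adjusted p at 3% O2 was not under 0.05 in 10 of 17 alternatives, with values from 0.0002463 to 0.2502. The difference of these responses was 0.02, with a 95% interval from -0.28 to 0.33, so no difference in response was detected at this precision, although under a correction for GC content, chosen after seeing the data, the difference was 0.18 (adjusted p = 0.04889; over all alternatives this p ran from 0.04889 to 0.9999). The exons of CCNE2 share 37.1% of their bases with genes on the opposite strand, chiefly INTS8, and the strand setting of the counting is not given in the sources used here, so reads of these genes cannot be told apart in the shared part. Per exon length, CCNE2 made up 77.7% ± 2.35, 79.9% ± 1.37, 74.6% ± 4.21 and 74.9% ± 2.12 (SD, n = 3) of the E-type cyclins, in the order 20% O2 with and without Doxy and 3% O2 with and without Doxy.

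At 20% O2 the A- and B-type cyclins had the largest estimated decreases of the tested members. The 95% intervals of CCNB2 (-0.85 to -0.58) and CCNE1 (-0.83 to -0.38) overlapped there. At 3% O2 the E-type cyclins had the lowest estimates, but their intervals overlapped those of the A- and B-type cyclins. Members were not tested against each other. CCNA2 (chr4:121816444-121823933, minus strand), the cyclin A of dividing somatic cells, was at 102, 113 and 114 CPM at 20% O2 with Doxy and at 53.2, 49.0 and 52.7 CPM without. At 3% O2 it was at 104.5, 105 and 99.2 CPM with Doxy and at 82.8, 82.5 and 84.7 CPM without. The 4 conditions thus gave a high level in both sets with Doxy, the lowest level at 20% O2 without Doxy, and a level between them, overlapping neither, at 3% O2 without Doxy. The log2 fold change on FDX2 loss was -1.08 (SE 0.0580, adjusted p = 4.109e-07 in edgeR) at 20% O2, to 47.2% of the level with Doxy, and -0.30 (SE 0.0573, adjusted p = 0.01013) at 3% O2, to 81.1%. The difference of the responses was 0.78 (SE 0.0812, adjusted p = 0.0005308).

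CCNB1 (chr5:69167010-69178245, plus strand), the main mitotic partner of CDK1, had the lowest fold change of the 9 tested members at 20% O2. It was at 314, 347 and 353 CPM at 20% O2 with Doxy and at 154, 154 and 147 CPM without. Its level at 3% O2 was 330.2, 331 and 308 CPM with Doxy and 275, 233 and 249.7 CPM without. CCNB1 changed by -1.16 (SE 0.0689, adjusted p = 7.853e-07 in edgeR) at 20% O2, to 44.9% of the level with Doxy, and 95 of the 16891 genes tested had a lower log2 fold change. At 3% O2 it changed by -0.35 (SE 0.0680, adjusted p = 0.01086), to 78.2%, and the difference of the responses was 0.80 (SE 0.0962, adjusted p = 0.00109).

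CCNB2 (chr15:59105078-59125045, plus strand), a second B-type cyclin, followed with a smaller amplitude. It was at 97.7, 109 and 108 CPM at 20% O2 with Doxy and at 62.8, 65.7 and 63.2 CPM without. In cells at 3% O2 its level was 103, 104 and 106 CPM with Doxy and 81.7, 88.1 and 92.6 CPM without. Its log2 fold change was -0.72 (SE 0.0602, adjusted p = 7.229e-06 in edgeR) at 20% O2 and -0.26 (SE 0.0599, adjusted p = 0.02665) at 3% O2. The adjusted p of CCNB2 at 3% O2 was not under 0.05 in 8 of 17 alternatives, with values from 0.0002978 to 0.292. The difference of the responses was 0.46 (SE 0.0847, adjusted p = 0.00927). At each oxygen level the groups with and without Doxy did not overlap for any of the 3 genes.

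The sequences upstream of the genes that moved together are shown because their cell-cycle control is known to run through short promoter words. The CCAAT box is bound by NF-Y, and the cell cycle genes homology region (CHR) is bound by MuvB complexes, which repress with RBL1 or RBL2 and activate with MYBL2 and FOXM1. E2F factors, held by RB1, bind other words. RefSeq windows (assembly GRCh38.p14) of 250 bases before and 50 after a start site were found for 6 of the 10 members, 9 windows in all. They were searched on both strands for CCAAT, for the CHR word TTTGAA with its variants, which replace the fourth letter (TTTAAA) or the first letter (CTTGAA), and for the E2F words TTTCCCGC, TTTGGCGC, TTTCGCGC and TTTGCCGC, and words may overlap each other. Printed here, 5′ to 3′ on the strand of the gene, are the 250 bases before the start site for 5 genes, with the words found in capitals (ATTGG is CCAAT on the other strand). For CDK1 only the first of its windows is printed.
CCNA2, chr4:121823884-121824133, minus strand: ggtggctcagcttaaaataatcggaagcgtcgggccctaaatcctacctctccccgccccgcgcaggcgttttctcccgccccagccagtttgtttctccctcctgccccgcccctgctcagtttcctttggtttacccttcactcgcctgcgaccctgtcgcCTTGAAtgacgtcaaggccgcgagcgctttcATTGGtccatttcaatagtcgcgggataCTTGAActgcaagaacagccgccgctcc
CCNB1, chr5:69166900-69167149, plus strand: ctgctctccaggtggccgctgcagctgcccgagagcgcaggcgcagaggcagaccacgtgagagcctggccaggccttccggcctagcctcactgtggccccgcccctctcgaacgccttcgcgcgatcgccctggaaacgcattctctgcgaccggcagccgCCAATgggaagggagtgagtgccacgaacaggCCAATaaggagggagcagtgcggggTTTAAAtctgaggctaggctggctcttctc
CCNB2, chr15:59104896-59105145, plus strand: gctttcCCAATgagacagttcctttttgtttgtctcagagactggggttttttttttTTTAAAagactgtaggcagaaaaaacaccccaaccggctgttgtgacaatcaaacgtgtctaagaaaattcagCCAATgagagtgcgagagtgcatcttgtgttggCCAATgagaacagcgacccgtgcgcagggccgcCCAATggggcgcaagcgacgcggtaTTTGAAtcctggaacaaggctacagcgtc
CCNE1, chr19:29811741-29811990, plus strand: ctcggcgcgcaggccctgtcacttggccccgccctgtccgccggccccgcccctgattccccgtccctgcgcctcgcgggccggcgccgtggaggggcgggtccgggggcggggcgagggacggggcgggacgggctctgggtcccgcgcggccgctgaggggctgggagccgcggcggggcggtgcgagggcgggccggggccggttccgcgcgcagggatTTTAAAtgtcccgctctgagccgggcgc
CDK1, chr10:60778081-60778330, plus strand: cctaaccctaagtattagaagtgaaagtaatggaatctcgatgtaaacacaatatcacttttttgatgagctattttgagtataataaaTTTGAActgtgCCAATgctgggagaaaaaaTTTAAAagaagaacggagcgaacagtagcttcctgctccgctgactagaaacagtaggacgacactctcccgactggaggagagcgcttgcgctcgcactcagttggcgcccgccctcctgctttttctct

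CCAAT and a CHR word stood together in the windows of CCNA2, CCNB1 and CCNB2 and in both windows of CDK1, against 12% of the 35116 windows of all genes. CCAAT alone was in 34.6% and a CHR word in 31.2% of all windows. Positions are counted from the start site to the word's leftmost base. CHR words lay at -28 and -87 in CCNA2, at -30 in CCNB1, at -29 and -193 in CCNB2 and at -28 in CCNE1. In CDK1 they lay at -131 and -161 in the first window and at -69, -13 and 9 in the second. CCAAT lay at -56 in CCNA2, at -55 and -87 in CCNB1 and at -54, -87, -120 and -244 in CCNB2. In CDK1 it lay at -150 in the first window and at -78 and -46 in the second. CCNE1 had no CCAAT, and none of the 3 windows of CCND3 had a CHR word. An E2F word, TTTCGCGC, was found in both windows of CDK1, in the first of them after the start site and so outside the printed bases. The windows of CDK1 overlap, and this word is the same site in both. Of all windows, 3.31% held an E2F word. These matches describe letters in these windows and do not show that a factor binds there.

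The kinases moved less than their cyclins. CDK1 (chr10:60778331-60794852, plus strand), the mitotic kinase, was at 177, 204 and 221 CPM at 20% O2 with Doxy and at 149, 145 and 156 CPM without. It fell by 0.42 on the log2 scale (SE 0.0869, adjusted p = 0.003307 in edgeR), to 74.7% of the level with Doxy. At 3% O2 it was at 187.5, 194 and 165 CPM with Doxy and at 163, 159 and 178 CPM without, which overlapped, with a log2 fold change of -0.13 (adjusted p = 0.4171). The difference of the CDK1 responses, 0.30 (SE 0.123, 95% interval 0.03 to 0.57), did not pass the test (adjusted p = 0.1743 in edgeR). Under the GC correction, chosen after seeing the data, this difference was 0.45 and was called (adjusted p = 0.0004085). Over all alternatives its adjusted p ran from 0.0004085 to 0.436.

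CDK2 (chr12:55966769-55972784, plus strand), the S-phase kinase whose transcript is known to vary little over the cycle, was at 75.9, 75.7 and 73.6 CPM at 20% O2 with Doxy and at 68.6, 66.8 and 66.8 CPM without. The groups did not overlap, and the log2 fold change was -0.15 (SE 0.0521, adjusted p = 0.03876 in edgeR). The adjusted p was not under 0.05 in 9 of 17 alternatives, with values from 0.002692 to 0.6302. At 3% O2 CDK2 was at 67.0, 67.6 and 75.4 CPM with Doxy and at 70.1, 70.5 and 69.0 CPM without, with a 95% interval of the log2 fold change from -0.12 to 0.11.

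**Figure D2:**
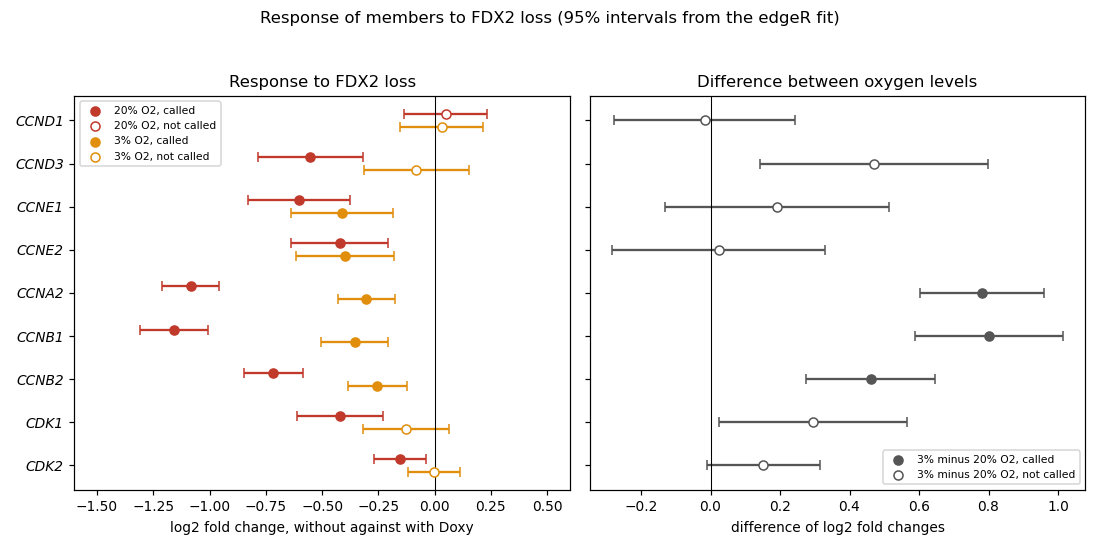
Left, log2 fold change of each tested member on FDX2 loss (without against with Doxy) at 20% O2 and at 3% O2; right, the difference between these responses (3% minus 20% O2). Bars are 95% intervals and filled points passed an adjusted p under 0.05. The 2 responses are far apart for CCNA2 and CCNB1 and nearly coincide for CCNE2 and CCND1.

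The calls at 3% O2 were less firm than those at 20% O2. The count of 5 lower members became 0 when replicate 2 with Doxy at 3% O2 was left out, 3 without replicate 1 with Doxy or replicate 3 without Doxy, 2 without replicate 1 or replicate 2 without Doxy, and 0 when only the 6 libraries at 3% O2 entered the fit. The log2 fold changes of CCNA2, CCNB1, CCNB2, CCNE1 and CCNE2 stayed below 0 in all 17 alternatives. The calls of CCNA2, CCNB1 and CCNB2 in the difference of the responses held in all 21 alternatives, with adjusted p of at most 0.00504, 0.009374 and 0.04943. Without replicate 3 with Doxy at 3% O2, 5 members were called in that difference, the added ones being CCND3 and CDK2.

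With Doxy, no difference between the oxygen levels was detected for any member. Between 3% and 20% O2, 0 of 9 members passed the test, against 2.02% of all genes, 0 had an unadjusted p under 0.05 and DESeq2 also called 0. Log2 fold changes ran from -0.14 for CDK1 to 0.13 for CCNE1, with a 95% interval for CCNB1 from -0.21 to 0.08. Under the GC correction CDK2 alone was called, at -0.14 (adjusted p = 0.04015, against 0.04015 to 0.9998 over the alternatives).

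Without Doxy, 5 of 9 members were higher at 3% than at 20% O2, against 13.9% of all genes. CCNB1 was higher by 0.74 (SE 0.0684, adjusted p = 4.809e-05 in edgeR), CCNA2 by 0.69 (adjusted p = 2.292e-05), CCND3 by 0.50 (adjusted p = 0.006543) and CCNB2 by 0.45 (adjusted p = 0.0004347) on the log2 scale. These 4 calls held in all 18 alternatives. CCNE1 was higher by 0.32 (adjusted p = 0.04491), but less firmly. With the replicate number as a block, in the fit of these conditions alone, its adjusted p was 0.07159. Over the alternatives it ran from 0.0372 to 0.1614. In the same blocked fit CDK1 was called higher, at 0.14 (adjusted p = 0.04649), where the unblocked value was 0.15 (adjusted p = 0.2134), and under the GC correction at 0.37 (adjusted p = 4.518e-05), with adjusted p up to 0.7494 over the alternatives. With total counts alone as scaling, CCND1 was called lower (-0.24, adjusted p = 0.0287), where TMM scaling gave -0.13 (adjusted p = 0.2621). CCNE2 was at -0.09 (adjusted p = 0.4996) and turned to 0.12 (adjusted p = 0.0321) under the GC correction, with adjusted p up to 0.7495 over the alternatives. CCNE2 and CDK1 have the lowest transcript GC content of the members, 36.9% and 37%.

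Without Doxy at 3% O2, the A- and B-type cyclins and CCNE2 stayed below their levels in cells with Doxy at 20% O2. In that comparison 4 of 9 were lower, against 8.05% of all genes: CCNE2 by -0.51 (SE 0.0984, adjusted p = 0.004916 in edgeR), CCNB1 by -0.42 (adjusted p = 0.001931), CCNA2 by -0.39 (adjusted p = 0.001025) and CCNB2 by -0.26 (adjusted p = 0.01205). CDK1 at -0.27 (adjusted p = 0.05441) and CCNE1 at -0.28 (adjusted p = 0.08027) did not pass. This comparison shares libraries with the others and differs in Doxy, oxygen and length of culture together.

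Levels between members were compared as CPM per kilobase of exon. At 20% O2 with Doxy the order was CCND1 at 227 ± 12.5 (SD, n = 3), CCNB1 at 132 ± 8.27, CDK1 at 51.1 ± 5.69, CCNA2 at 39.1 ± 2.47, CCNB2 at 37.5 ± 2.25, CDK2 at 19.3 ± 0.334, CCNE2 at 15.1 ± 1.68, CCND3 at 12.3 ± 1.55 and CCNE1 at 4.32 ± 0.417. Of these neighbours, CCNA2 and CCNB2 overlapped, as did CCNE2 and CCND3, and the rest did not. At 20% O2 without Doxy CCND1 stayed first at 235 ± 1.43 and CCNB1 second at 59.3 ± 1.54, and CCNA2, at 18.5 ± 0.827, now lay below CCNB2, at 22.8 ± 0.549, and overlapped CDK2, at 17.3 ± 0.261. At 3% O2 without Doxy CCNB1 was at 98.7 ± 8.28, CCNB2 at 31.2 ± 1.96 and CCNA2 at 29.8 ± 0.429, the last pair overlapping, and CCND3, at 11.9 ± 0.640, lay above CCNE2, at 10.6 ± 0.526.

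**Figure D3:**
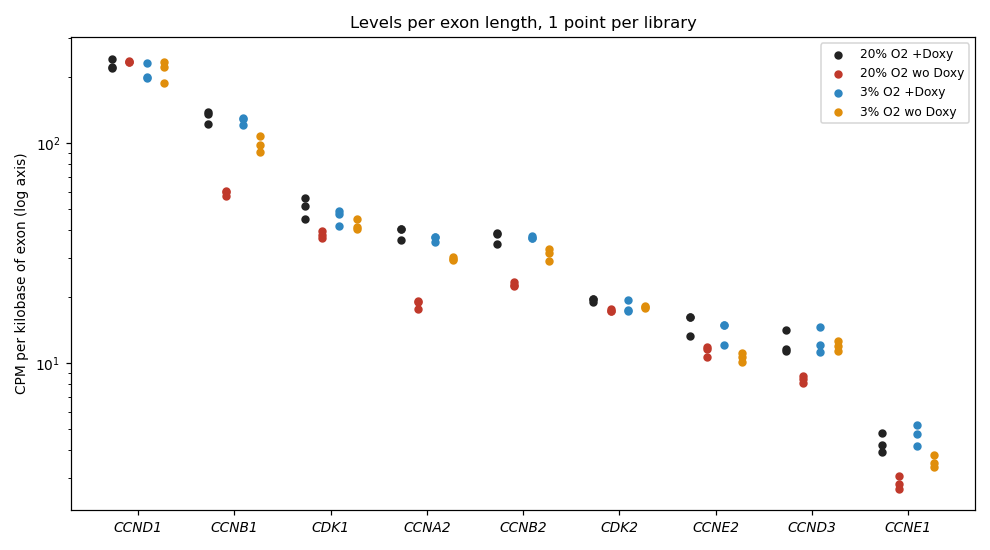
Level of each tested member per kilobase of annotated exon, on a log axis, with 1 point per library and 1 colour per condition. CCND1 is the most abundant member in all 12 libraries and CCNE1 the least abundant tested one, and CCNA2 and CCNB1 show the widest spread between conditions.

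The proportion of a cyclin to its kinase within a library does not depend on library scaling. CCNB1 stood to CDK1 as 2.60 ± 0.137 to 1 (SD, n = 3) at 20% O2 with Doxy, 1.56 ± 0.0936 without, 2.73 ± 0.122 at 3% O2 with Doxy and 2.33 ± 0.229 without, per exon length. CCNA2 stood to CDK2 as 2.03 ± 0.152, 1.07 ± 0.0407, 2.05 ± 0.192 and 1.66 ± 0.0428 in the same order. For both proportions the 3 libraries at 20% O2 without Doxy lay below all others. These 2 proportions were chosen after their values were seen and are given as a description with no test. The log2 ratio of CDK1 to CDK2 was 1.40 ± 0.185, 1.14 ± 0.0585, 1.36 ± 0.216 and 1.24 ± 0.101, with an exact permutation p = 0.1 for FDX2 loss at 20% O2 and 0.4 at 3% O2.

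**Figure D4:**
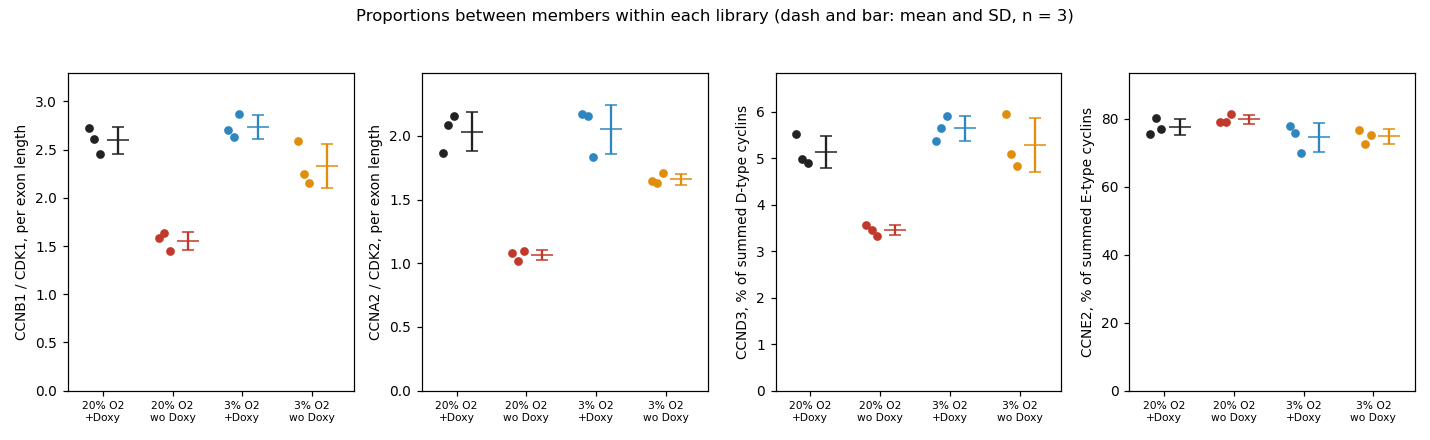
Proportions between members within each library, per exon length, on axes that start at 0 (points are libraries, dash and bar the mean and SD, n = 3). The ratios of CCNB1 to CDK1 and of CCNA2 to CDK2 and the CCND3 share are lowest at 20% O2 without Doxy, and the CCNE2 share overlaps between the conditions with and without Doxy.

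The genes that act on these kinases were read from lists of cell-cycle regulators. Their counts at 20% O2 stand against 17.7% of all genes lower and 17.6% higher, and their lower counts at 3% O2 against 3.11%. Of 6 other cell-cycle cyclins and CDKs, 1 was called after FDX2 loss at 20% O2, a share near that of all genes: CCNF, an atypical cyclin of the SCF ubiquitin ligases, fell by 1.40 on the log2 scale (adjusted p = 9.164e-05 in edgeR), from 60.3 ± 11.2 to 22.8 ± 0.931 CPM (SD, n = 3). CCNA1 at -0.55 (adjusted p = 0.259), CCNB3 at -0.26 (adjusted p = 0.5757) and CDK3 at 0.15 (adjusted p = 0.7551) were not called. Their counts were low, at 9 to 17, 24 to 33 and 10 to 21 in a library at 20% O2. CDK3 also shares 91.2% of its exon bases with TEN1-CDK3 on the same strand. CDK4 and CDK6, the partners of the D-type cyclins, were among the 5 not called. At 3% O2 0 of the 6 were called, 0 had an unadjusted p under 0.05, and DESeq2 called 0, with at most 1 called under any alternative.

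CDK activators and subunits were lower at 20% O2 for 4 of 8 genes and higher for 1. The phosphatases CDC25C, CDC25B and CDC25A, which remove inhibitory phosphates from CDKs, changed by -0.67, -0.59 and -0.54 on the log2 scale, and CKS2, a small CDK-binding subunit, by -0.54. CDK7, the catalytic subunit of the CDK-activating kinase, rose by 0.29 (adjusted p = 0.04595 in edgeR), the 1 gene in that direction, named after its values were seen. The inhibitory kinases opposed to CDC25 fell as well: WEE1 changed by -0.78 (adjusted p = 1.058e-05 in edgeR) and PKMYT1 by -0.59 (adjusted p = 0.03638), which is 2 of 2. The PKMYT1 value rests on replicate 1 with Doxy at 20% O2, without which it was -0.36 (adjusted p = 0.1193), and the call was also lost without any 1 of the 3 libraries without Doxy. Its adjusted p was not under 0.05 in 6 of 17 alternatives, running from 0.000309 to 0.1193. At 3% O2 CDC25A (-0.28) was the 1 of 8 called, and WEE1 (-0.31) the 1 of 2.

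CDK inhibitors moved both ways at 20% O2, with 3 of 7 tested lower and 1 higher. CDKN2C, an inhibitor of CDK4 and CDK6, changed by -0.96 (adjusted p = 3.8e-05 in edgeR), CDKN3, a phosphatase that acts on CDKs, by -0.59 and CDKN2D by -0.58. CDKN2B, which inhibits CDK4 and CDK6 downstream of TGF-beta, rose by 0.78 (adjusted p = 3.184e-05), from 8.01 ± 0.456 to 13.8 ± 0.631 CPM (SD, n = 3). At 3% O2 0 of the 7 were called, 0 had an unadjusted p under 0.05, and DESeq2 called 0, with at most 1 called under any alternative.

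Genes of cyclin degradation were lower for 8 of 12 at 20% O2, with a median log2 fold change of -0.45 against 0.01 over all genes tested. UBE2S, an E2 enzyme of the anaphase-promoting complex, changed by -1.07 (adjusted p = 0.003463 in edgeR), SKP2, which marks CDK inhibitors for destruction, by -1.03 (adjusted p = 3.305e-07), CDC20, a coactivator of that complex, by -0.95 (adjusted p = 5.164e-05) and FZR1, its G1 coactivator, by -0.82 (adjusted p = 0.008002). At 3% O2 2 of 12 were lower, SKP2 at -0.40 and UBE2C at -0.24.

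Among 23 regulators of cyclin genes, 10 were lower and 3 higher at 20% O2. E2F2 changed by -0.97 (adjusted p = 0.02047 in edgeR, but not under 0.05 without replicate 1 or 2 with Doxy or replicate 2 without Doxy, and from 0.01015 to 0.07265 over the alternatives), E2F1 by -0.83 (adjusted p = 0.000869), FOXM1 by -0.81 (adjusted p = 0.0005274) and MYBL2 by -0.67 (adjusted p = 0.005561), while the repressor E2F7 rose by 0.42 (adjusted p = 0.0001174). At 3% O2 1 of 23 was lower (E2F8, named after its values were seen, at -0.34), and DESeq2 called 4 and the fit with GC correction 5. The E2F, FOXM1 and MYBL2 transcripts are themselves cell-cycle regulated.

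Cyclins and CDKs of transcription and RNA processing were lower for 3 of 13 genes at 20% O2, close to the 17.7% of all genes, with a median of -0.03. CDK9, the kinase of P-TEFb, changed by -0.54 (adjusted p = 0.001944 in edgeR), CCNC by -0.38 (adjusted p = 0.00586) and CDK8 by -0.28 (adjusted p = 0.005219), and CDK11A, at 0.37 (adjusted p = 0.5102), was not called. DESeq2 and the GC correction each called 6 of them. At 3% O2 0 of 13 were called, 2 had an unadjusted p under 0.05 and DESeq2 called 1. Of 16 tested other cyclins and CDK-like kinases, 3 were higher and 3 lower at 20% O2, close to the 17.6% and 17.7% of all genes. CDK15 rose by 2.36 (adjusted p = 3.304e-05) from a low level, 9 to 10 counts in a library with Doxy and 45 to 54 without, CDK18 by 0.69 (adjusted p = 0.01799, but up to 0.09116 over the alternatives and not under 0.05 without replicate 2 or 3 with Doxy or replicate 3 without Doxy) and CCNG2, a cyclin tied to arrested cells, by 0.66 (adjusted p = 6.998e-05), and CNTD1, at 1.45 (adjusted p = 0.4362), was not called. At 3% O2 0 of 16 were called, 4 had an unadjusted p under 0.05 and DESeq2 called 1, with at most 3 called under any alternative.

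The genes whose log2 CPM followed CCNB1 most closely over the 12 libraries were AURKA, a mitotic kinase, HSP90AA1, a stress-inducible chaperone, and ANLN, a scaffold of the cytokinetic ring, with Pearson's r of 0.9961, 0.9955 and 0.9953 out of 10764 genes averaging 5 CPM or more. For CCNE1 they were SMAGP (0.9637), ZNF318 (0.9623) and CREB3L2 (0.9611), and for CCND1 RFLNB (0.9376), SGSH (0.9275) and LEF1 (0.9201). Among the members themselves r was 0.9904 between CCNA2 and CCNB1 and -0.4734 between CCNB1 and CCND1. These correlations are descriptions, since libraries of a condition share its mean.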

How the data were processed

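RNA-seq of poly(A) RNA from 12 libraries (4 conditions, 3 biological replicates each) was analysed. The deposited values were counts per gene, which the authors made with STAR and featureCounts on GRCh38, per the submitters' notes. The strand setting and versions were not given in the sources used here. A read file of the pair was lost in transfer for replicates 1 and 2 with Doxy at 20% O2, and their counts were used as deposited. All 58735 gene IDs matched GENCODE 29. Counts passing filterByExpr (minimum 10, total 15) were fitted in edgeR 4.0.16 (R 4.3.3, limma 3.58.1) with TMM scaling, 1 mean per condition and 8 residual degrees of freedom, by the quasi-likelihood test with Benjamini-Hochberg adjustment over all 16891 genes tested. CPM use TMM-scaled library sizes, and levels per length use merged exons. Within-library ratios were compared by exact permutation tests (scipy 1.17.1). The fit was also run on simulated counts drawn independently for each library, so that check does not cover the deviations that these libraries share. DESeq2 1.42.0, other scalings and filters, a replicate block, fits of the compared conditions only, an adjusted p under 0.01, leaving out each library, and a GC correction (chosen after seeing the data) were alternatives.

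Each exact test of 3 against 3 libraries cannot go below 0.1. No label says that replicate numbers pair libraries. For 3% against 20% O2 without Doxy, same-numbered libraries correlated at 0.247 to 0.363 in their deviations from the group means. Others of these conditions correlated at -0.432 to 0.0756. For no other pair of conditions were all same-numbered correlations over 0.1. Differently numbered libraries of other conditions correlated at up to 0.818, so these values do not establish a pairing. The common biological coefficient of variation was 16.3%. Named genes were the 10 members, FDX2, at most the 4 genes of each list with the largest change at 20% O2, genes called in the difference of the responses, and the 3 genes most like CCNB1, CCNE1 and CCND1. The members and the lists were chosen with earlier results of these data known. No sample is said to come from a separate clone or date, so p-values measure the spread between these replicates, which may be technical.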

Additional observations from a re-analysis of the deposited data

Results flagged for a closer look

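For 20 of the 96 tested genes of the members and lists, against 7.29% of all genes tested, the responses at 3% and 20% O2 were unequal by edgeR's test of the difference itself (adjusted p under 0.05). Values are the response at 3% minus that at 20% O2 on the log2 scale. Among the members these were CCNA2 (0.78), CCNB1 (0.80) and CCNB2 (0.46), and among other cell-cycle cyclins CCNF (1.10). Among CDK activators, inhibitory kinases and inhibitors they were CDC25C (0.42), CKS2 (0.59), WEE1 (0.47), CDKN2C (0.81) and CDKN2B (-0.61). Genes of cyclin degradation were CDC20 (0.71), SKP2 (0.64), UBE2C (0.49) and CUL1 (0.32). The remaining genes were CDK9 (0.54), CDK8 (0.33), FOXM1 (0.69), TFDP1 (0.46), E2F7 (-0.41), CCNG2 (-0.52) and CDK15 (-1.48). In each of the 20 genes the value has the opposite sign to the fold change at 20% O2. The value contains that fold change with its sign reversed, so the opposite sign is not a separate result. CDC25C, CDK8, CDK9, CDK15 and FOXM1 lost their call in 10 or more alternatives, and CCNA2, CCNB1, CCNB2, CDKN2B, CDKN2C, SKP2, UBE2C, TFDP1 and E2F7 had an adjusted p under 0.05 in all 21. No explanation of the differences was tested.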

How the results depend on the processing

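After FDX2 loss at 20% O2, 6 to 8 members were called under every alternative. After FDX2 loss at 3% O2, the 5 members called became 0 at an adjusted p under 0.01, 3 with total counts alone, 3 with no filter, 3 with a replicate block in all 12 libraries, 0 in the fit of only the conditions compared and 0 with a replicate block there, and 0 to 4 with a library left out. The 3 members called in the difference of the responses became 6 under the GC correction and 3 to 5 with a library left out. For 3% against 20% O2 with Doxy the GC correction called 1 member. Without Doxy at 3% against with Doxy at 20% O2, 4 became 7 under the GC correction. They became 0 with a replicate block in the conditions compared, whose same-numbered libraries correlated at -0.541 to -0.155 in their deviations. For 3% against 20% O2 without Doxy, the CCNE1 call was absent with the replicate block in both fits. It was absent in 16 of the 18 alternatives. The block added CDK1 in the fit of these conditions only, and no other member's call changed with the block. The cause of these changes was not tested. CCND2 cannot be compared at this depth.

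Over all genes, the calls after FDX2 loss at 20% O2 fell from 5961 to 3645 at an adjusted p under 0.01. After FDX2 loss at 3% O2 they moved from 1235 to 404 at an adjusted p under 0.01, 678 with no filter, 676 with a replicate block in all libraries, 1944 in DESeq2, 218 in the conditions compared only, 1 with a replicate block there and 2569 under the GC correction, and ran from 581 to 1605 with a library left out. For 3% against 20% O2 with Doxy, 341 became 181, 218 with a replicate block, 629 in DESeq2, 128 in the conditions compared only, 12 with a replicate block there and 930 under the GC correction, and 190 to 388 with a library left out. Without Doxy 4360 became 1975 at an adjusted p under 0.01 and 2321 to 4200 with a library left out. For the difference of the responses 1231 became 382, 672 with no filter, 615 with a replicate block, 1916 in DESeq2 and 2783 under the GC correction, and 520 to 2191 with a library left out. For without Doxy at 3% against with Doxy at 20% O2, 3091 became 1378, 1302 in the conditions compared only and 13 with a replicate block there, and 1717 to 3892 with a library left out.

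Total counts alone raised the median of all genes at 20% O2 from 0.009005 to 0.1318. CDK2 at 3% O2 went from -0.003097 to 9.599e-05 with upper-quartile scaling and 0.02405 with total counts, and CDK2 for 3% against 20% O2 without Doxy from 0.05175 to -0.05372 with total counts and -0.001999 with GC correction and replicate block. CCNB2 and CCND3 for oxygen with Doxy went to 0.009162 with upper-quartile scaling and to -0.01425 with GC correction. CCNE2 in the difference of the responses went to -0.04129, -0.0753 and -0.0001195 with upper-quartile scaling, total counts and at least 10 counts in every library, and for 3% against 20% O2 without Doxy to 0.1244 with GC correction and 0.1124 with the replicate block added. CCND1 went to -0.0007146 at 3% O2 with no filter and to 0.003018 in the difference with GC correction. With a library left out, values ran from -0.03751 to 0.1189 for CCND1, -0.1607 to 0.03554 for CCND3 and -0.03997 to 0.0529 for CDK2 at 3% O2. They ran from -0.06686 to 0.02135 for CCNB2 and -0.08963 to 0.1253 for CCND3 for oxygen with Doxy. They ran from -0.08299 to 0.07223 for CCND1, -0.06628 to 0.1093 for CCNE2, -4.313 to 0.4387 for CNTD1 and -0.3222 to 0.4062 for CDK11A in the difference. They ran from -0.154 to 0.001875 for CCND1 and -0.1103 to 0.03019 for CCND3 between 3% O2 without Doxy and 20% O2 with Doxy. At 20% O2 they ran from -0.1619 to 0.3356 for CDK3 and from -0.01284 to 0.5732 for CDK11A. The CCNE2 share ran from -2.05 to 1.994 percentage points for FDX2 loss at 3% O2, and the log2 ratio of CDK1 to CDK2 from -0.1334 to 0.08703 for oxygen with Doxy.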
